A study of Mus musculus with 10 samples.

Results

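The study's list of the lncRNAs most changed between young and aged mouse hearts, as used here, held 99 probes, and 66 of them were annotated as overlapping, antisense to or divergent from a gene, whereas the other 33 were intergenic. These 66 gene-associated lncRNAs are described here, out of 38282 lncRNA probes on the array. The listed lncRNAs were selected on their age difference in these same 10 arrays, and the 66 were then chosen by the list's annotation of the relationship to the associated gene. Of the 66, 18 were listed as higher and 48 as lower in aged hearts. The annotation placed 40 in the exon sense-overlapping class (6 higher, 34 lower), 4 in the intron sense-overlapping class (3 higher, 1 lower), 11 in the natural antisense class (6 higher, 5 lower), 8 in the intronic antisense class (3 higher, 5 lower) and 3 in the bidirectional class (all lower). They named 63 associated genes, of which 3 (Dlg2, Dpp10 and Dpy19l4) were shared by more than 1 lncRNA.

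A lncRNA that overlaps the exons of a gene on the same strand is often a non-coding isoform of that gene, such as a transcript with a retained intron. A natural antisense RNA is read from the other strand of a gene and can pair with its transcript. An intronic lncRNA lies inside an intron on either strand, and a bidirectional lncRNA starts near the start of a neighbouring gene and is read away from it. RNAs of these kinds are known to act on splicing, stability or transcription of the gene they lie in, although many have no known function, and in the heart antisense RNAs have been described at genes of the contractile apparatus.

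Hearts of male C57BL/6 wild-type mice were compared in a 3m group (3 months old, n = 5) and a 20m group (20 months old, n = 5), with 1 heart on each of 10 one-colour arrays. No mouse carried a transgene or received a treatment. The methods state that the young and the aged mice came from different suppliers, so that supplier and age cannot be told apart. Header scan times placed 2 of the 3m hearts (replicates 1 and 2) on 1 slide, called slide 1 here, and the other 3 of the 3m hearts with all 5 of the 20m hearts on a second, called slide 2. Heart tissue holds several cell types, and a fall in the number of cells of 1 type cannot be told apart from less RNA per cell. The array files name no gene, so the heart's defining markers could not be checked.

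Values are log2 normalized intensities, with a floor of 2.32 on this scale (5 on the linear scale), and a fold change is the mean of the 20m group minus that of the 3m group on the log2 scale. Calls needed an adjusted p below 0.05 in limma together with a change of 1 or more on the log2 scale, up or down. Over the 24522 lncRNA probes measured well above background on at least 5 of 10 arrays, 11.5% were called, with 5.2% higher and 6.35% lower in the 20m group. All 66 lncRNAs were among these probes and all 66 were called. The age groups did not overlap for 65 of them, against 22% of all lncRNA probes tested. Since the age contrast chose the list, these counts and all fold changes below are a description without a test, and nothing is read from them. The median log2 fold change was 2.77 (2.46 to 3.23) for the 18 higher lncRNAs and -2.92 (-6.87 to -2.46) for the 48 lower ones, and it was 0.12 over all lncRNA probes tested. For 7 of the 66, no array of 1 age group was well above background, so only a bound on the fold is given. For it, each value of that group was raised, where lower, to the lowest value flagged well above background on the same array. Such a bound holds for the deposited intensities alone. With these 7 lncRNAs set to their bound, the medians were 2.72 and -2.88. Close to the edge of the list, AK144448 and Metap2 had 2.46 and 2.48 and Gm35161 and Tex264 had -2.50 and -2.46. Just outside it, 1 unnamed probe had 2.46, and the unlisted sense-overlapping uc.75 and Gm42701 had -2.47 and -2.45. A further unnamed probe with 3.04 was not on the list.

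The 60-base probes themselves are shown first, because the higher and the lower lncRNAs differed in what their probes share. Of the 18 higher lncRNAs, 10 had a probe that begins with CTCCC or TCTCCC, and none of the 48 lower ones had. In Metap2 it runs into a match to CCCCGC (below). These starts were noticed in the sequences, so their count is a description. The same start was held by 1 of 11 listed intergenic lncRNAs that were higher, by 8 of 45 listed mRNAs that were higher, by none of the 73 listed mRNAs that were lower and by 0.341% of 32851 RefSeq windows of the same length, the last 60 bases of each promoter entry (GRCm38.p6). These windows come from promoters and are not array probes. The share over all probes of the array, for this start and for the words below, was not at hand. The reverse complement of the start, at the end of the probe, was in none of the 66. The 10 probes are printed 5′ to 3′ as the array design gives them, with the shared start in capitals.
Rnf144a: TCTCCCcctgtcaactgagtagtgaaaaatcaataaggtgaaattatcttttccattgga
Nob1: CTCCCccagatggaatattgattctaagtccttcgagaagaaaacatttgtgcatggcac
Prima1: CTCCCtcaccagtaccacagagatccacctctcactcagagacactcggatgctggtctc
Metap2: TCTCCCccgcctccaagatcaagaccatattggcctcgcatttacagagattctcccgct
AK156111: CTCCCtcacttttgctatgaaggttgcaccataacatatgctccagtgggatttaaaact
AK141275: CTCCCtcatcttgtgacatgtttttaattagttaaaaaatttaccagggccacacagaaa
AK018848: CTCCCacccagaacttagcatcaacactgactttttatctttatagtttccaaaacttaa
Gm29587: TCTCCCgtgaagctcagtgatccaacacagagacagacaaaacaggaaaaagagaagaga
Gm11110: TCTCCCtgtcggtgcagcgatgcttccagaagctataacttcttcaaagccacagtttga
4930556I23Rik: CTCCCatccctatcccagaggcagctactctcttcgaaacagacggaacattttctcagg

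Probes of the lower lncRNAs shared other letters. These words too were noticed in the sequences of the listed probes, so their counts are a description. CCTGCC was in 12 of the 48 lower lncRNAs and in none of the 18 higher ones, against 3.25% of the RefSeq windows, and its longer form CCCTGCCC was in 9 of the 48 against 0.353% of the windows. GCCCAGT was in 7 of the 48 and none of the 18 (windows 0.591%), and in Stk38, Tcf3, Map1s and Sfswap it overlapped CCTGCC. The word CCCCGC was in 5 of the 48 and 1 of the 18 (windows 3.49%), and CCAGCC was in 4 of the 48 and none of the 18 (windows 3.94%). Both Dpy19l4 probes are among the 5 and hold CCCCGC in the stretch they share (below), so 1 sequence is counted for 2 lncRNAs. At least 1 of these 4 short words was in 23 of 48 lower and 1 of 18 higher lncRNAs, in 8 of 22 lower and 0 of 11 higher intergenic lncRNAs, in 19 of 73 lower and 3 of 45 higher mRNAs of the study's list and in 10.5% of the windows. On the opposite strand, only CCCCGC was found among the 66, in 2 lower lncRNAs. The median GC content was 51.7% for probes of the lower and 42.5% for probes of the higher lncRNAs, and 56.7% for the windows. The probes below belong to lower lncRNAs with large negative fold changes or with a wide spread among the 3m hearts, and 1 such match is in capitals in each.
Stk38: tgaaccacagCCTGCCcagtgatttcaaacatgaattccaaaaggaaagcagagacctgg
Gm15082: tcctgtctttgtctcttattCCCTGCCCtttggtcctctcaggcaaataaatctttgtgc
Tcf3: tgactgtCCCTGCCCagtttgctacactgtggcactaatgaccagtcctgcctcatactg
Bcas3os1: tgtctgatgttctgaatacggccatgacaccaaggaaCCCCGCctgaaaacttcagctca
Slc39a13: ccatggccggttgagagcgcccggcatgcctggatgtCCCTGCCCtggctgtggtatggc
Macrod2: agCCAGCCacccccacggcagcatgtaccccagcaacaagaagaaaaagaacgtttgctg
Fmnl1: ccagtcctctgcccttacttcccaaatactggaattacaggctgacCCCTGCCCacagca
Map1s: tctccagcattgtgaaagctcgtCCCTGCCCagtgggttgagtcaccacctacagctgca
AK016451: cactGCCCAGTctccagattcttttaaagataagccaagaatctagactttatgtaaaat
Ice2: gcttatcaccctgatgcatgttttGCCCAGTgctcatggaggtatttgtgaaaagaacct
Megf11: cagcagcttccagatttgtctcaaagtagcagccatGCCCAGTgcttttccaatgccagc
uc.239: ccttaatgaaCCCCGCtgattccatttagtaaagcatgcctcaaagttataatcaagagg

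Both lncRNAs of Dpp10 and both of Dpy19l4 had probes that share a stretch (capitals), 25 bases long for Dpp10 and 27 for Dpy19l4, so each pair is not 2 independent measurements.
Dpp10 ENSMUST00000187202: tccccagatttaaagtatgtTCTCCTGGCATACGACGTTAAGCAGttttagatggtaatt
Dpp10 ENSMUST00000140361: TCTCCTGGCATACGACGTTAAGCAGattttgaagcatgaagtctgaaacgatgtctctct
Dpy19l4 ENSMUST00000144941: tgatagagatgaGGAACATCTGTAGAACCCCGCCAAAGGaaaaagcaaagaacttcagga
Dpy19l4 ENSMUST00000148524: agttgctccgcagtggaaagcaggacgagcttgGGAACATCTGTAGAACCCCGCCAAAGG

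**Figure D1:**
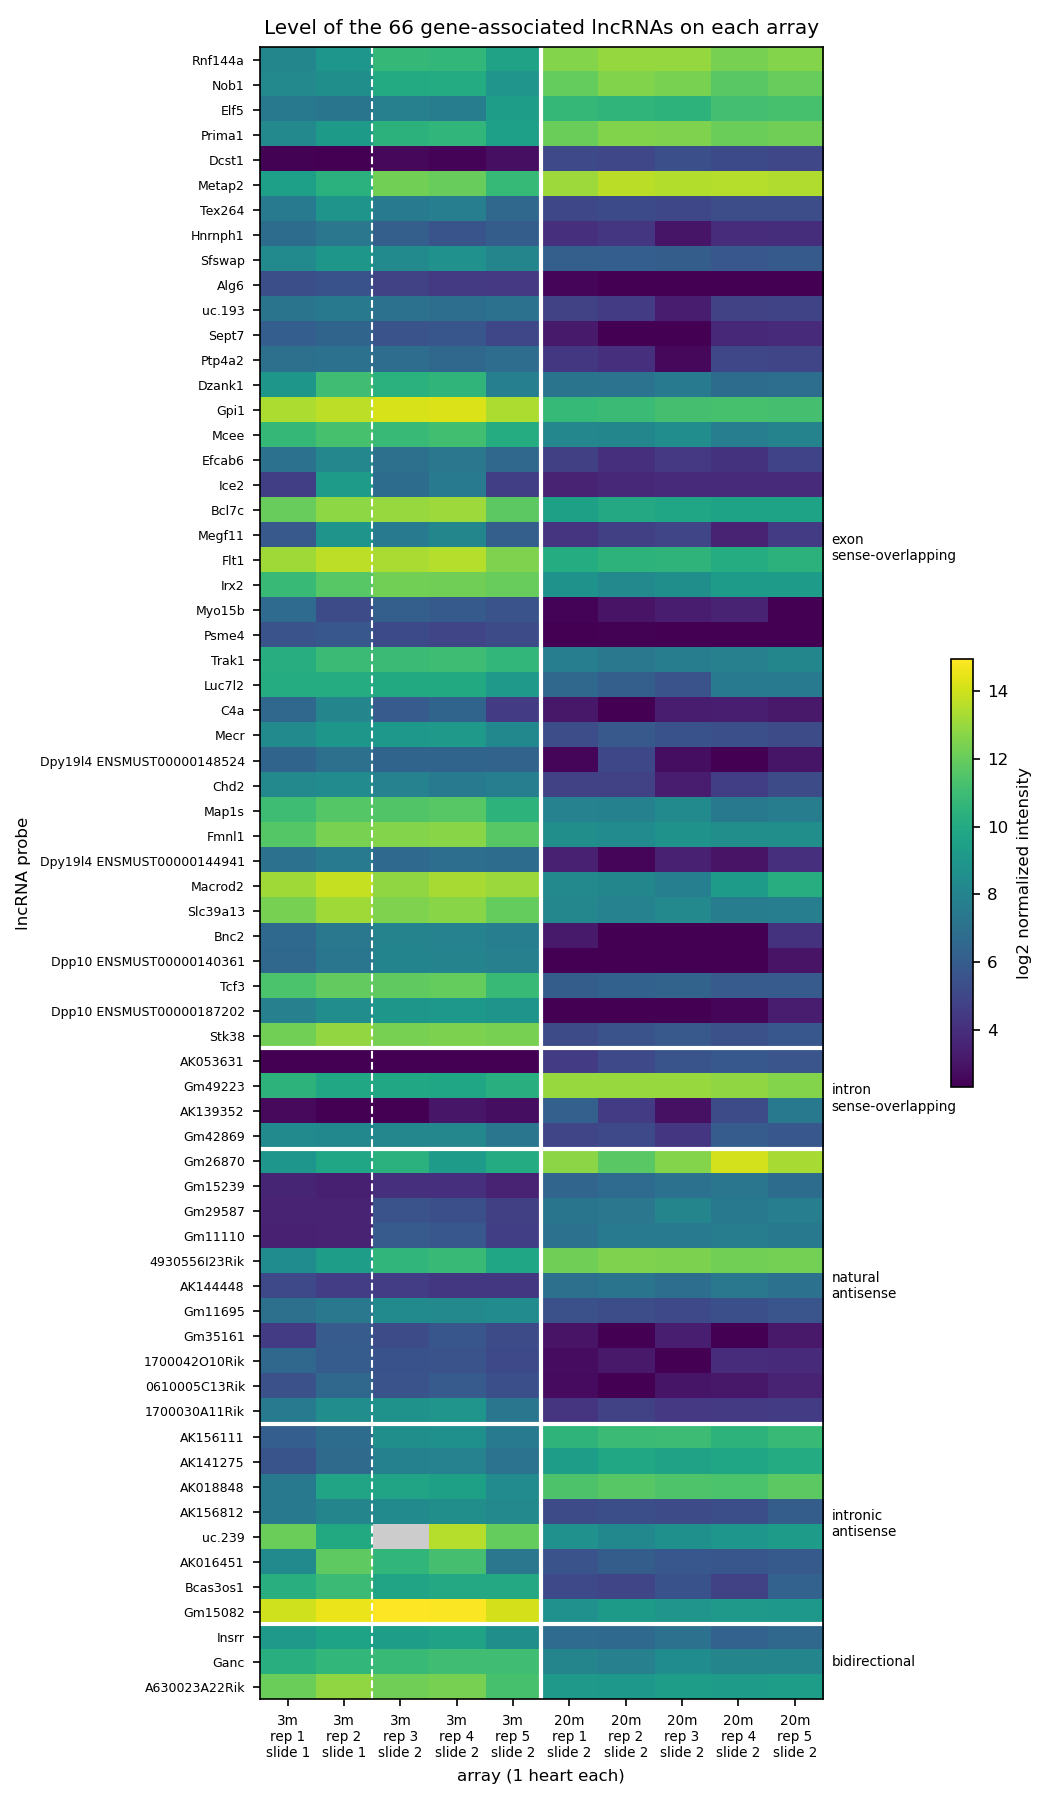
Log2 normalized intensity (colour) of each of the 66 lncRNA probes (rows, by class and fold change) on each of the 10 arrays (columns, with replicate and slide). The white vertical line parts the 3m from the 20m hearts, the dashed line parts slide 1 from slide 2, and grey marks the spot left out for uc.239. The 18 higher lncRNAs stand at the top of each class.

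Exon sense-overlapping lncRNAs made up 40 of the 66, and 34 of them were lower in the 20m hearts, with log2 fold changes from -6.87 to -2.46. With the 6 of them that have only a bound set to that bound, the median was -2.89. The other 6 were higher, with a median of 2.83 (2.48 to 3.06). All 40 of these transcripts but uc.193 and C4a carry the symbol of the gene they overlap, so a probe may also bind that gene's mRNA where the sequences are shared, which was not tested.

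Among the 6 higher, Rnf144a (chr12:26307429-26310386, minus strand, mm10) lies in the gene of an E3 ubiquitin ligase. Its values were 8.09, 8.93, 10.74, 10.69 and 9.60 in 3m replicates 1 to 5 and 12.58, 12.91, 12.94, 12.36 and 12.59 in the 20m hearts (log2 fold change 3.06 ± 0.43, SE). The 2 hearts of slide 1 were the lowest, and the groups did not overlap. Nob1 overlaps the gene of the endonuclease that completes the RNA of the small ribosomal subunit. It stood at 8.24, 8.60, 10.01, 10.09 and 8.87 in the 3m hearts and at 11.96, 12.55, 12.40, 11.72 and 11.99 in the 20m hearts (2.96 ± 0.34), again with slide 1 lowest. Elf5, in the gene of an epithelial ETS transcription factor, had 7.44, 7.24, 7.82, 7.60 and 9.38 in the 3m and 10.74, 10.59, 10.49, 11.14 and 11.26 in the 20m hearts (2.95 ± 0.35). Here replicate 5 was the high one among the 3m hearts. Prima1, in the gene of the membrane anchor of acetylcholinesterase, had a log2 fold change of 2.70, Dcst1, in a gene of a DC-STAMP domain membrane protein, had 2.61, and Metap2, in the gene of an enzyme that removes the first methionine of new proteins, had 2.48. Dcst1 was well above background on 1 of 5 arrays of the 3m group and on all 5 of the 20m group, and with normexp (below) it stood at 0.55 and was not called. With the GAPDH ratio as covariate (below), Rnf144a (1.78), Metap2 (1.46) and Prima1 (1.68) were not called, and the other 3 stayed called. On slide 2 alone, Rnf144a had 2.33, Metap2 1.77 and Prima1 2.12.

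Stk38, a transcript of the gene of an NDR-family serine/threonine kinase (chr17:28975849-28991383, minus strand), had the most negative log2 fold change of the 42 lncRNAs that were well above background on all 10 arrays. It stood at 12.25, 12.89, 12.33, 12.44 and 12.33 in the 3m hearts and at 5.25, 5.57, 5.85, 5.44 and 5.77 in the 20m hearts, a log2 fold change of -6.87 ± 0.18. All 5 hearts of each age lay within a narrow range, and the signal was above background on all 10 arrays. Tcf3, in the gene of the basic helix-loop-helix factor E2A (chr10:80412627-80415487, minus strand), had 11.36, 11.90, 11.86, 11.95 and 10.85 in the 3m hearts and 6.03, 6.23, 6.32, 5.95 and 5.94 in the 20m hearts (-5.49 ± 0.22). It was above background throughout.

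Dpp10 encodes an accessory subunit of Kv4 potassium channels. ENSMUST00000187202 (chr1:123608107-123650360, minus strand) had 7.83, 8.48, 9.01, 9.06 and 8.84 in the 3m hearts and 2.32, 2.32, 2.32, 2.55 and 3.32 in the 20m hearts. It was not well above background on any 20m array, so by the bound it was at least 38.5-fold lower there from the deposited intensities. ENSMUST00000140361 (chr1:123625839-124045255, minus strand) had 6.51, 7.28, 8.02, 7.98 and 7.79 in the 3m hearts, and in the 20m hearts it had 2.32 in 4 and 3.00 in replicate 5, at least 17.6-fold lower. With normexp (below) the log2 fold changes were -2.89 and -2.02, smaller than these bounds. In both, slide 1 held the lower 3m values. Dpy19l4 belongs to a family of C-mannosyltransferase genes. ENSMUST00000144941 (chr4:11303423-11322047, minus strand) had 7.09, 7.59, 6.65, 6.87 and 6.79 in the 3m and 3.47, 2.54, 3.48, 2.99 and 4.08 in the 20m hearts (-3.68 ± 0.27), with 3 of 5 arrays of the 20m group above background. ENSMUST00000148524 (chr4:11317096-11322100) had 6.40, 7.0, 6.41, 6.36 and 6.34 in the 3m and 2.50, 5.07, 2.77, 2.37 and 3.05 in the 20m hearts (-3.35 ± 0.42), with 20m replicate 2 the only array of that group above background. With normexp the 2 Dpy19l4 lncRNAs stood at -1.42 and -1.14.

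**Figure D2:**
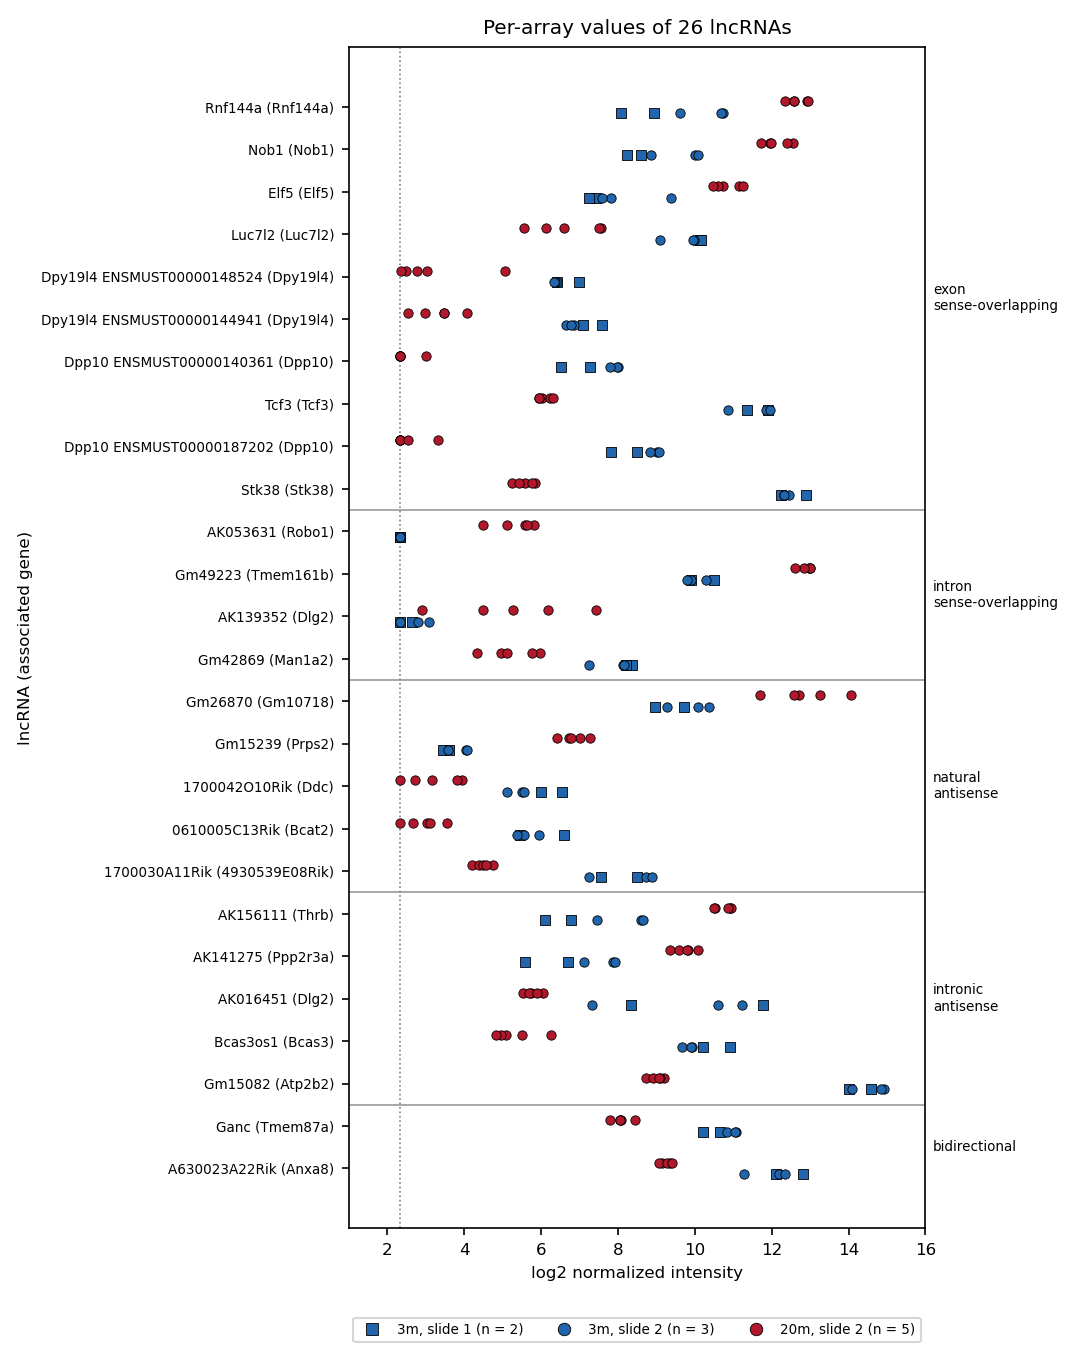
Log2 normalized intensity (horizontal) of 26 lncRNAs (the leading ones of each class, those sharing a gene and those with an mRNA probe), with the associated gene in brackets. Each point is 1 heart (squares 3m on slide 1, blue circles 3m on slide 2, red circles 20m), and the dotted line is the floor. For Stk38 the 3m hearts sit above 12 and the 20m hearts below 6, and AK139352 alone has overlapping groups.

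The other exon sense-overlapping lncRNAs that were lower fell into several roles of the gene they overlap. Of regulators of transcription and chromatin, Bnc2 (a zinc finger protein) had a log2 fold change of -4.65, Chd2 (a chromatin remodeller) -3.39, Irx2 (an Iroquois homeobox factor) -2.95, Bcl7c (a subunit of SWI/SNF complexes) -2.85 and Ice2 (a subunit of the little elongation complex) -2.78. Bnc2 was above background on 1 of the 5 arrays of the 20m group and stood at -1.91 with normexp (below). RNA-binding proteins and splicing factors were represented by Luc7l2, by Sfswap (-2.52), a splicing regulator, by Hnrnph1 (-2.51), a splicing factor, and by uc.193 (-2.63), an ultraconserved element in Syncrip, which encodes an RNA-binding protein of cytoplasmic mRNA. Luc7l2, in the gene of a factor of the U1 snRNP, is given with its mRNA below. Across all classes, the 5 lncRNAs of this role had 4 lower members (-3.20 to -2.51) and 1 higher, Nob1.

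Genes of the cytoskeleton, of transport along it and of the muscle membrane held Fmnl1 (-3.63), a formin that elongates actin, Map1s (-3.41), which binds microtubules, Trak1 (-3.02), an adaptor that moves mitochondria, Sept7 (-2.63), a septin, and Myo15b, a myosin-like gene. With AK156812 (at Sgcd, below), all 6 lncRNAs of this role were listed as lower, as were 48 of all 66. Myo15b was above background in the 3m group alone and was at least 5.78-fold lower in the 20m group from the deposited intensities, against a log2 fold change of -0.91 with normexp (below). Metabolic enzymes were represented by Mecr (-3.31), of mitochondrial fatty acid synthesis, Mcee (-2.74), methylmalonyl-CoA epimerase, and Gpi1 (-2.70), glucose-6-phosphate isomerase of glycolysis. Flt1, the gene of VEGF receptor 1 on endothelium, had a lncRNA with -2.89 and values from 12.47 to 13.69 (median 13.32) in the 3m hearts. Ptp4a2 (-2.66) encodes a protein tyrosine phosphatase.

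Slc39a13, the gene of a zinc transporter of the secretory pathway, had a lncRNA at -4.59, and Macrod2, of an ADP-ribose hydrolase, one at -4.51. Alg6, in the gene of a glucosyltransferase of N-glycan synthesis, was at least 2.86-fold lower, Psme4, in that of a proteasome activator, at least 3.87-fold lower, and C4a, in that of complement C4, at least 7.47-fold lower, because none of the 3 was above background on a 20m array. These bounds hold for the deposited intensities, and with normexp (below) the log2 fold changes were smaller, at -0.54 (Alg6), -0.69 (Psme4) and -1.18 (C4a). Tex264 (-2.46) lies in the gene of a receptor for autophagy of the endoplasmic reticulum. Megf11 (-2.88) overlaps a gene of a cell surface protein with EGF repeats, Efcab6 (-2.77) one of an EF-hand protein, and Dzank1 (-2.67) one of a zinc ribbon and ankyrin repeat protein. The annotation gave C4b as the gene of C4a, but the span of C4b in RefSeq did not overlap it. C4a and C4b are near-identical copies, so this value may come from either.

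Several lower lncRNAs shared an order of the 3m hearts. In 22 of the 48, replicates 1 and 5 were the 2 lowest of the 5 young hearts, against 6.75% of all lncRNA probes tested. Replicates 1 and 5 lie on different slides. In Ice2 the values were 4.64, 9.25, 6.80, 7.52 and 4.65 in the 3m hearts and 3.53 to 3.90 (median 3.84) in the 20m hearts. Dzank1 had 9.01, 11.09, 10.37, 10.56 and 7.75 in the 3m hearts, and Megf11 had 5.85, 8.85, 7.50, 8.10 and 6.13. In these 3 and in AK016451 (below), the SD among the 3m hearts was 1.28 to 1.97, against a median of 0.33 over all lncRNA probes tested.

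Intron sense-overlapping lncRNAs numbered 4. AK053631 (chr16:72412744-72415443, plus strand) lies in an intron of Robo1, the receptor of Slit guidance cues. It was at the floor of 2.32 in all 5 of the 3m hearts and had 4.50, 5.12, 5.60, 5.82 and 5.64 in the 20m hearts, at least 4.3-fold higher from the deposited intensities. With normexp (below) its log2 fold change was 0.77 and it was not called. Gm49223 (chr13:84274844-84280817, plus strand), in the membrane protein gene Tmem161b, had 10.50, 9.89, 9.90, 9.81 and 10.29 in the 3m and 12.98, 12.99, 12.99, 12.85 and 12.60 in the 20m hearts (2.80 ± 0.17). The age groups did not overlap for either. AK139352 (chr7:91048998-91053335, plus strand) lies in Dlg2, the gene of the postsynaptic scaffold PSD-93. It had 2.63, 2.32, 2.32, 3.08 and 2.79 in the 3m and 6.18, 4.49, 2.90, 5.26 and 7.42 in the 20m hearts (2.62 ± 0.63), was above background on 1 array of the 3m and 4 of the 20m group, and alone of the 66 had overlapping groups. AK139352 stood at 0.80 with normexp (below), not called, and at 4.24 with the GAPDH ratio as covariate (below), still called. Gm42869 (chr3:100624902-100627022, minus strand), in Man1a2, the gene of a Golgi mannosidase, was the 1 lower lncRNA of this class. It had 8.37, 8.22, 8.14, 8.15 and 7.25 in the 3m and 4.97, 5.12, 4.34, 5.97 and 5.76 in the 20m hearts (-2.80 ± 0.30).

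Natural antisense lncRNAs divided almost evenly, with 6 higher (2.46 to 3.18) and 5 lower (-3.71 to -2.50). Gm26870 (chr9:3024048-3038313, minus strand), annotated as antisense to the predicted gene Gm10718, had 8.95, 9.73, 10.38, 9.29 and 10.08 in the 3m and 12.72, 11.70, 12.58, 14.06 and 13.27 in the 20m hearts (3.18 ± 0.39). The groups did not overlap, and 20m replicate 4 was highest. It lies at the centromere end of chromosome 9, and the letters of its probe read like the mouse major satellite, the repeat of pericentromeric heterochromatin. That likeness is background knowledge and was not computed here. A probe for a repeat can bind many copies, so the value is uncertain as that of 1 transcript.
Gm26870: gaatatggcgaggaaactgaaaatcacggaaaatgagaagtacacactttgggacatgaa

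Gm15239 (chrX:167361455-167364421, plus strand) is antisense to Prps2, the gene of a phosphoribosyl pyrophosphate synthetase of nucleotide synthesis. It had 3.61, 3.45, 4.05, 4.07 and 3.59 in the 3m and 6.42, 6.72, 7.01, 7.28 and 6.79 in the 20m hearts (3.09 ± 0.20). The other higher natural antisense lncRNAs were Gm29587 (2.99) at the synaptotagmin gene Syt16, Gm11110 (2.74) at Tnfsf9, which encodes the 4-1BB ligand of T cell costimulation, 4930556I23Rik (2.54) at 2010300C02Rik, now named Cracdl, and AK144448 (2.46) at Deptor, the gene of an mTOR inhibitor. In the 3m group, 4 arrays measured Gm29587 above background and 3 measured Gm11110. With the GAPDH ratio as covariate (below), Gm11110 (1.60) and 4930556I23Rik (1.59) were not called. The other 4 higher lncRNAs of this class stayed called.

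Of the 5 lower, 1700030A11Rik (chr17:28905265-28906771, plus strand) is antisense to 4930539E08Rik, now named Bnip5. It had 7.57, 8.50, 8.73, 8.88 and 7.26 in the 3m and 4.20, 4.75, 4.40, 4.48 and 4.56 in the 20m hearts (-3.71 ± 0.29). Its locus lies on the same chromosome as Stk38, and the 2 transcripts run on opposite strands. 0610005C13Rik (chr7:45570988-45575138, minus strand) is antisense to Bcat2, the mitochondrial aminotransferase of branched-chain amino acids. It had 5.45, 6.59, 5.55, 5.96 and 5.38 in the 3m and 2.68, 2.32, 3.02, 3.12 and 3.56 in the 20m hearts (-2.85 ± 0.27), with 1 of 5 arrays of the 20m group above background, and with normexp (below) it stood at -0.81 and was not called. Gm35161 (-2.50) lies at Adcy2, the gene of an adenylyl cyclase, and was also above background on 1 array of the 20m group. Gm11695 (-2.50) lies at Slc16a5, a gene of the monocarboxylate transporter family. 1700042O10Rik is given with its gene Ddc below.

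Intronic antisense lncRNAs numbered 8, all above background on all 10 arrays, with 3 higher and 5 lower. Gm15082 (chr6:113937739-113940206, plus strand), in an intron of the plasma membrane calcium pump gene Atp2b2, had 14.0, 14.58, 14.93, 14.85 and 14.10 in the 3m hearts and 8.72, 9.19, 8.91, 9.09 and 9.07 in the 20m hearts (-5.50 ± 0.21). Bcas3os1 (chr11:85702200-85719744, minus strand), within Bcas3, the gene of a protein of cell migration, had 10.22, 10.92, 9.67, 9.94 and 9.91 in the 3m and 5.09, 4.97, 5.50, 4.82 and 6.27 in the 20m hearts (-4.80 ± 0.29). Both had a wide gap between the ages.

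AK016451 (chr7:92081088-92082536, minus strand) is the second lncRNA of Dlg2, on the strand opposite to AK139352. It had 8.34, 11.78, 10.62, 11.23 and 7.31 in the 3m and 5.53, 6.06, 5.73, 5.68 and 5.90 in the 20m hearts (-4.08 ± 0.70). Replicates 1 and 5 were well below the other 3 young hearts, and the 2 lncRNAs of Dlg2 were listed in opposite directions. uc.239 (-3.14), an ultraconserved element in Tox, which encodes an HMG-box factor, had a mean of 11.9 ± 1.44 (SD, n = 4) in the 3m hearts and of 8.75 ± 0.38 (SD, n = 5) in the 20m hearts. The spot of 3m replicate 3 was left out as an outlier. AK156812 (-2.69) was assigned to Sgcd, the delta-sarcoglycan of the muscle membrane complex, although it did not overlap the RefSeq span of that gene.

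The 3 higher intronic antisense lncRNAs all had the shared probe start. AK141275 (chr9:101117682-101120730, plus strand), in Ppp2r3a, a regulatory subunit of protein phosphatase 2A, had 5.58, 6.70, 7.88, 7.92 and 7.11 in the 3m and 9.34, 9.82, 9.60, 9.80 and 10.09 in the 20m hearts (2.69 ± 0.38). With the GAPDH ratio as covariate (below), AK141275 stood at 1.96 and was not called, and the other 2 of these 3 stayed called. AK018848 (2.58) lies in Pkm, the pyruvate kinase gene of glycolysis. AK156111, in Thrb, is described with its gene next. Of the 3 bidirectional lncRNAs, A630023A22Rik (chr14:34051262-34102754, minus strand) at the annexin gene Anxa8 had 12.12, 12.82, 12.20, 12.34 and 11.29 in the 3m and 9.16, 9.07, 9.35, 9.28 and 9.41 in the 20m hearts (-2.90 ± 0.24). Insrr (-2.62) lies at the gene of the insulin receptor-related receptor, and Ganc stands at the Tmem87a start.

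Whether the associated gene moved with its lncRNA could be asked for 5 of the 63 genes, all 5 with an mRNA probe called lower, against 9.65% of the 16720 mRNA probes tested. These mRNA probes came from a list of 690 mRNAs that the study held as lower in aged hearts, so the direction of each mRNA is fixed by that choice and only the values are given. In 4 of the 5 pairs the lncRNA was also listed as lower. With the GAPDH 3′ over 5′ ratio (below) as a covariate, Ddc mRNA alone of the 5 stayed called (-1.93), and the fold changes of the others were -0.83 (Luc7l2), -0.72 (Tcf3), -0.65 (Thrb) and -0.69 (Tmem87a). With normexp, Luc7l2 (-0.44) and Tmem87a (-0.90) mRNA were not called, nor was 1700042O10Rik (-0.71), the lncRNA of the Ddc pair, which stood at -1.37 with the GAPDH covariate. Ddc, the gene of the decarboxylase that makes dopamine and serotonin, had mRNA values of 7.81, 7.33, 6.87, 6.39 and 6.76 in the 3m and 4.14, 4.70, 4.52, 4.87 and 4.54 in the 20m hearts (-2.48 ± 0.25). Its antisense 1700042O10Rik (chr11:11868123-11885321, plus strand) had 6.55, 5.99, 5.51, 5.57 and 5.12 in the 3m and 2.73, 3.17, 2.32, 3.94 and 3.81 in the 20m hearts (-2.55 ± 0.33). In both, 3m replicate 1 was highest and the groups did not overlap.

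Luc7l2 mRNA had 5.27, 5.61, 4.83, 4.74 and 4.17 in the 3m and 3.16, 2.51, 2.37, 3.33 and 3.66 in the 20m hearts (-1.92 ± 0.30), with 1 of 5 arrays of the 20m group above background. The sense lncRNA of Luc7l2 (chr6:38551531-38554007, plus strand) had 10.13, 10.15, 9.98, 9.96 and 9.10 in the 3m and 6.60, 6.14, 5.55, 7.55 and 7.50 in the 20m hearts (-3.20 ± 0.36). In both, 20m replicate 3 was lowest and replicates 4 and 5 were highest among the aged hearts, an order that Tcf3 and Thrb mRNA shared. The GAPDH log2 ratio ran the other way, with 3.06 in replicate 3 as its highest and 2.33 and 2.40 in replicates 4 and 5 as its lowest values among the aged hearts, and its part in this order was not tested. Tcf3 mRNA had 12.18, 12.31, 11.93, 11.78 and 11.55 in the 3m and 10.02, 9.49, 9.06, 11.01 and 10.59 in the 20m hearts (-1.91 ± 0.32), a smaller fold than that of the Tcf3 lncRNA.

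Thrb, the gene of thyroid hormone receptor beta, was the pair whose probes were listed in opposite directions. The mRNA had 11.27, 10.87, 11.31, 11.30 and 10.54 in the 3m and 8.77, 8.42, 7.63, 10.29 and 10.29 in the 20m hearts (-1.98 ± 0.45). AK156111 (chr14:17871371-17874871, minus strand), antisense in an intron of Thrb, had 6.10, 6.78, 8.61, 8.65 and 7.46 in the 3m and 10.54, 10.93, 10.94, 10.49 and 10.87 in the 20m hearts (3.23 ± 0.42). The transcript of that mRNA probe spans chr14:17981529-18038090 (plus strand), so AK156111 lies before it and not inside it. AK156111 does lie within the longer RefSeq span of Thrb. The age groups were apart for both probes. With the GAPDH ratio as covariate, AK156111 stayed called at 2.06 and Thrb mRNA, at -0.65, did not.

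Ganc (chr2:120403896-120423659, plus strand), which carries the symbol of an alpha-glucosidase gene, starts at Tmem87a, the gene of a Golgi membrane protein read the other way. The lncRNA had 10.20, 10.67, 10.85, 11.06 and 11.06 in the 3m and 8.05, 7.80, 8.44, 8.07 and 8.06 in the 20m hearts (-2.68 ± 0.19). Tmem87a mRNA had 7.84, 7.43, 7.41, 7.29 and 7.09 in the 3m and 6.05, 5.29, 5.37, 6.51 and 6.35 in the 20m hearts (-1.50 ± 0.25). The Ganc probe shared 31 bases, on the opposite strand, with the RefSeq promoter window of Tmem87a (chr2:120404067-120404097), so this probe sits on the first bases of the divergent gene.

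**Figure D3:**
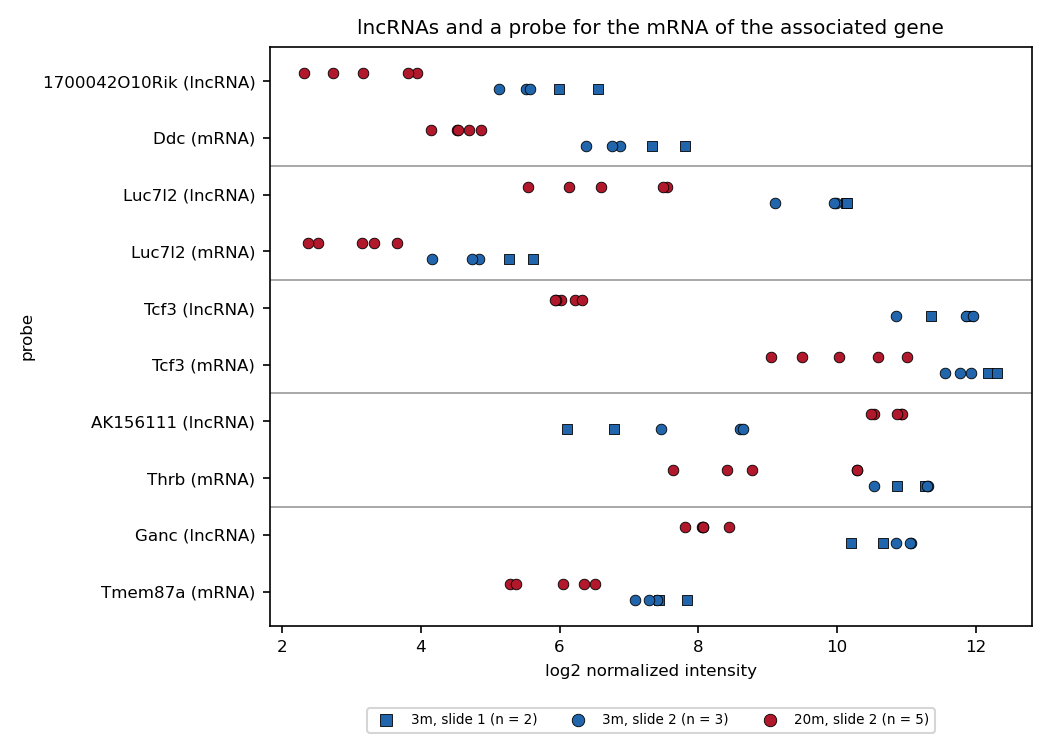
Log2 normalized intensity (horizontal) of 5 lncRNAs and of a probe for the mRNA of the associated gene, 1 point per heart (squares 3m on slide 1, blue circles 3m on slide 2, red circles 20m). AK156111 is higher in the 20m hearts while Thrb mRNA is lower, and both probes are lower in the other 4 pairs.

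Positions were compared with RefSeq genes of GRCm38.p6. Of the 40 exon sense-overlapping lncRNAs, 39 overlapped the span of the named gene, and all 34 for which a strand was at hand ran in the gene's direction. For 13 of these 34, the 5′ end of the lncRNA lay within 1000 bases of a start of the gene. All 10 natural antisense lncRNAs with a gene in RefSeq overlapped it, and none of the 7 with a known strand shared its direction. For the intronic antisense class these counts were 7 of 8 and 0 of 7. Insrr, annotated as bidirectional, lay wholly inside the gene of that name, and A630023A22Rik extended across Anxa8 on the other strand. The Mcee probe shared 38 bases with the Mcee promoter window (chr7:64392634-64392671), in the sense direction.

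The 3 young hearts on slide 2 were compared with the 2 on slide 1. Since no aged heart lay on slide 1, part of a slide difference enters the age difference that chose the list, so the slide values of the 66 are given as a description as well. With limma, 8.16% of lncRNA probes differed between the slides, 7.26% higher and 0.905% lower on slide 2. Of the 66 lncRNAs, 12 were called, 9 of the 18 listed as higher in aged hearts and 3 of the 48 listed as lower. All 9 of the former were higher on slide 2. They were Rnf144a (1.84 ± 0.41), AK156111 (1.80 ± 0.40), Gm11110 (1.91 ± 0.36), Gm29587 (1.66 ± 0.26), Metap2 (1.76), 4930556I23Rik (1.53), AK141275 (1.50), Prima1 (1.45) and Nob1 (1.24), as log2 differences with the SE of limma. The other 3 were Gm11695 (1.17) and Dpp10 ENSMUST00000140361 (1.03), higher on slide 2, and Hnrnph1 (-1.14), lower there. The median difference was 1.08 over the 18 higher and -0.30 over the 48 lower lncRNAs, against 0.04 over all lncRNA probes tested. The call count fell to 0 of the 66 without 3m replicate 1, to 4 without replicate 3 and to 3 without replicate 4, and it was 11 and 12 without replicates 2 and 5. Without replicate 1 or 2, slide 1 is a single heart that is assumed to vary like those of slide 2. Each slide held other animals, so slide and animal cannot be told apart.

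The 9 called higher lncRNAs were all among the 10 whose probe begins with CTCCC or TCTCCC (the tenth, AK018848, had a slide difference of 0.67), and none of the other 8 was called. Relative to its own 3m mean, the median lncRNA of the 10 stood at -1.39 and -0.57 in 3m replicates 1 and 2, at 0.93 and 1.02 in replicates 3 and 4 and at -0.03 in replicate 5. In the 20m hearts it stood between 2.48 and 2.91. For the other 8, the medians were between -0.19 and 0.19 in the 3m hearts and between 2.63 and 3.18 in the 20m hearts. On slide 2 alone, where 3 young and 5 aged hearts share a slide, the median log2 fold change was 2.22 for the 10 and 2.76 for the 8. Over all 66, slide 2 alone gave medians of 2.49 (higher) and -2.94 (lower), and 65 of the 66 again had groups that did not overlap, against 31.3% of all lncRNA probes tested.

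**Figure D4:**
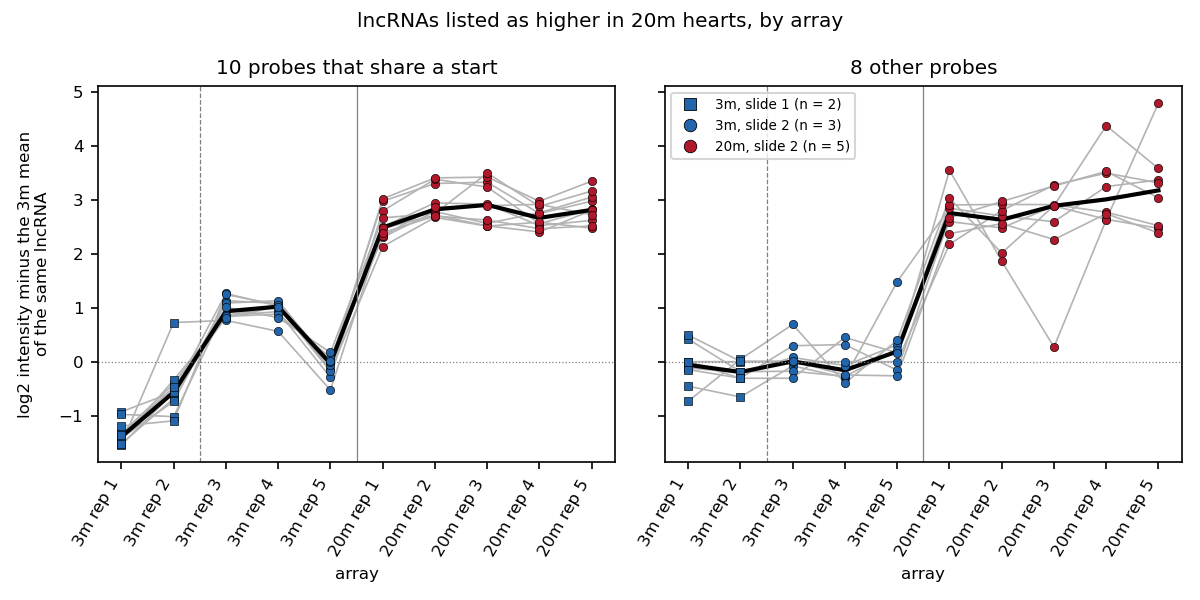
Log2 intensity of the 18 lncRNAs listed as higher in 20m hearts, minus the 3m mean of the same lncRNA (vertical), on each array (horizontal), for the 10 probes that share a start (left) and the 8 others (right). Grey lines are single lncRNAs and the black line is their median, which runs from -1.39 to 1.02 across the 3m arrays on the left and from -0.19 to 0.19 on the right.

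Control probes along GAPDH, whose 3′ over 5′ signal is a sign of RNA integrity, moved with the same samples. The log2 ratio was 1.70 to 1.71 in the 3m hearts of slide 1, 2.14 to 2.17 in those of slide 2 and 2.33 to 3.06 in the 20m hearts. The same ratio for PGK1 was 8.04 in both hearts of slide 1, 8.27 to 8.63 in the 3m hearts of slide 2 and 8.97 to 9.27 in the 20m hearts. With the GAPDH ratio as a covariate in limma, 56 of the 66 lncRNAs were still called, against 7.1% of all lncRNA probes. Of the 10 with the shared start, 4 stayed called, and the median of all 10 was 1.80. Of the other 8 higher lncRNAs, all 8 stayed called (median 2.86). Of the 48 lower lncRNAs, 44 stayed called and the median of the 48 was -2.93. Single lncRNAs moved more, among them Luc7l2 (-3.20 to -1.93), Ptp4a2 (-2.66 to -1.29), Sept7 (-2.63 to -1.36), Hnrnph1 (-2.51 to -1.46), Chd2 (-3.39 to -2.25) and Macrod2 (-4.51 to -3.35), all still called. The 4 lost were C4a (-3.23 to -2.18, both fitted), Ice2 (-2.78 to -2.45), Dzank1 (-2.67 to -2.66) and AK016451 (-4.08 to -3.88), so that for the latter 3 the fold moved little while the call was lost. The 6 lost among the higher lncRNAs were Rnf144a (3.06 to 1.78), Prima1 (2.70 to 1.68), Metap2 (2.48 to 1.46), AK141275 (2.69 to 1.96), Gm11110 (2.74 to 1.60) and 4930556I23Rik (2.54 to 1.59). The ratio is higher in every 20m heart than in any 3m heart, so ratio and age cannot be told apart, and the part of the ratio in the slide difference was not tested.

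Another reading of the spots, with median in place of the deposited intensities, normexp background correction and an offset of 50, gave smaller fold changes for dim probes. These 3 changes were made together. Under it, 54 of the 66 were called against 3.03% of all lncRNA probes, and the medians were 2.44 and -2.06. The 12 that were no longer called were Dcst1, AK053631 and AK139352 (0.80) among the higher, and Psme4, Myo15b, Ice2 (-1.30), Sept7 (-0.77), Alg6, Hnrnph1 (-0.997), 0610005C13Rik, 1700042O10Rik and Gm35161 (-0.59) among the lower. All but Ice2 failed the background limit on at least 1 array. Others stayed called with a log2 value over 1.5 times smaller than from the deposited intensities. Besides those given above, these were Gm15239 (1.26), Gm29587 (1.59), Gm11110 (1.40) and AK144448 (1.20) among the higher. Among the lower they were Chd2 (-1.86), Megf11 (-1.51), Efcab6 (-1.41), Ptp4a2 (-1.14), uc.193 (-1.29), Tex264 (-1.47), Gm42869 (-1.68), AK156812 (-1.76), 1700030A11Rik (-2.17) and Gm11695 (-1.61). Of the 66, 42 were well above background on all 10 arrays (12 higher, 30 lower), and 7 had no array above background in 1 age group.

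**Figure D5:**
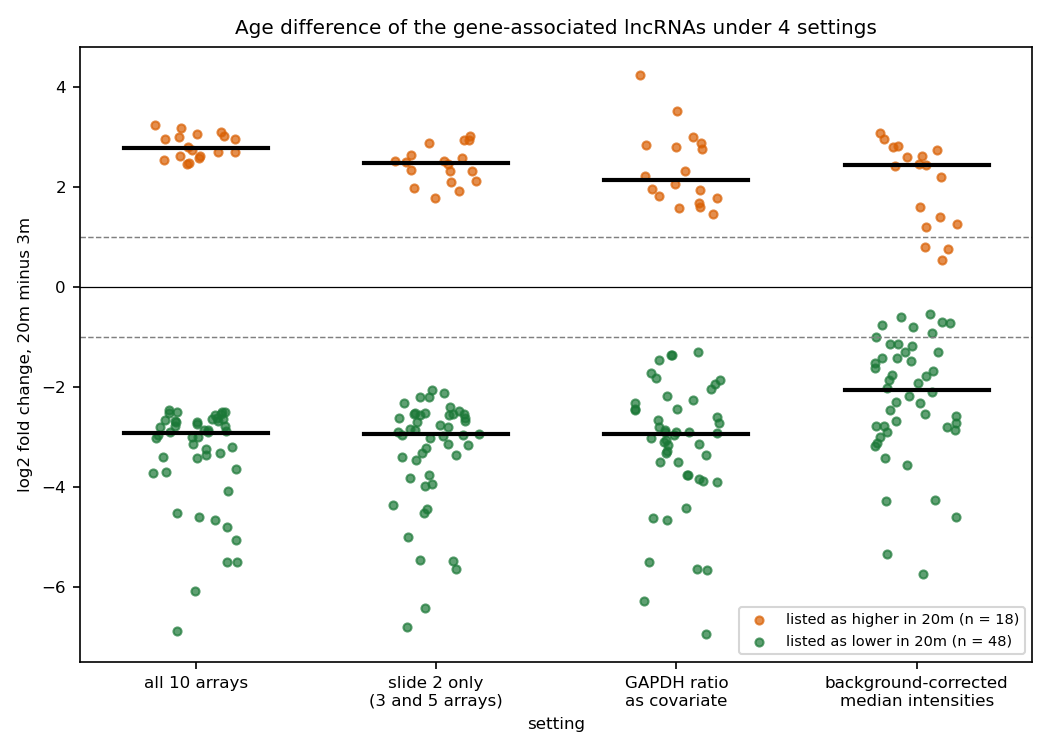
Log2 fold change (20m minus 3m, vertical) of each of the 66 lncRNAs under 4 settings (horizontal), with the median of each direction as a black bar and the call limit of 1 as dashed lines. The higher lncRNAs have medians of 2.77, 2.49, 2.14 and 2.44, the lower ones -2.92, -2.94, -2.93 and -2.06, and no lncRNA changes sign.

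By orientation, 9 of the 44 sense lncRNAs were listed as higher and 35 as lower, and 9 of the 19 antisense ones as higher and 10 as lower. Listed intergenic lncRNAs comprised 11 higher and 22 lower, with slide calls for 2 of the 11 and 2 of the 22. By annotation source, 56 came from GENCODE (12 higher, 44 lower), 8 from GenBank (6 higher, 2 lower) and 2 from the ultraconserved set (both lower). By role of the associated gene, 13 lncRNAs fell under no named role (4 higher, 9 lower), and the largest named groups were transcription factors and chromatin (2 higher, 7 lower), kinases, receptors and signalling (4 higher, 5 lower) and metabolic enzymes (2 higher, 5 lower).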

How the data were processed

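Heart RNA of 5 mice aged 3 months and 5 aged 20 months was hybridized to Arraystar Mouse LncRNA Microarray V4.0 arrays, 1 heart per array, and grouped by the sample labels. The authors deposited scanner files with a background-subtracted intensity per spot and a table of quantile-normalized log2 values. The submitters' processing notes name Agilent Feature Extraction 9.1, and the file headers and the methods each give another version. From the deposited intensities, quantile normalization was run, values under 5 were raised to 5, and log2 was taken. Control spots were left out and outlier spots were set to missing. A probe entered the fit if 5 or more of the 10 arrays measured it well above background. One model with age was fitted with limma 3.58.1 in R 4.3.3, with Benjamini-Hochberg adjustment within lncRNA probes. Calls required an adjusted p below 0.05 together with a change of 1 or more (log2, either sign). The slide difference among the 3m hearts was fitted likewise on these 5 arrays. Arrays that share a header scan time were taken as 1 slide.

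Probe names, sequences, coordinates (mm10) and associated genes came from the study's supplementary lists, since the array files hold only probe names. The lncRNAs and the role groups were chosen with earlier results of these data known. Values by heart are given per class and direction for the 2 lncRNAs (exon sense-overlapping 3) with the largest fold change, for those that share a gene, and for those whose gene has a named mRNA probe. Further values by heart, the motifs and the order of the 3m hearts were chosen after the values were seen. In simulated data with 200 of 41242 probes changed by 2 on the log2 scale, the model called 186 (93%) and 5 others for age, and 58 (29%) and 1 other for the slide. Python 3.11.15, numpy 2.4.6, pandas 2.3.3 and matplotlib 3.10.9 were used for summaries and plots. The number of arrays limits the precision. Alternatives covered scaling, background correction, floor, filters, test, adjustment, blocks, the GAPDH ratio and each array left out.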

Additional observations from a re-analysis of the deposited data

Results flagged for a closer look

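In 7 of 62 groups of 5 hearts checked, the highest or lowest heart stood apart by more than 0.71 of the group's range (Dixon's critical value), where chance gives about 1 in 20. Elf5 had 9.38 in 3m replicate 5 (next 7.82). The 2 Dpp10 lncRNAs had 3.32 (ENSMUST00000187202) and 3.00 (ENSMUST00000140361) in 20m replicate 5, with the other hearts at or near the floor and no 20m array above background, so these 2 gaps are set by the floor and carry no weight among the 7. Dpy19l4 ENSMUST00000148524 had 7.0 in 3m replicate 2 (next 6.41) and 5.07 in 20m replicate 2 (next 3.05). Luc7l2 had 9.10 in 3m replicate 5 (next 9.96), and Gm42869 had 7.25 in the same heart (next 8.14). The 2 Dpp10 probes share 25 bases, so their values in 20m replicate 5 are not independent.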

How the results depend on the processing

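All 66 lncRNAs kept the direction of their log2 fold change on slide 2 alone, with slide as a block, with the GAPDH ratio, with normexp and in the authors' log2 table. With normexp on median intensities, 381 higher and 363 lower lncRNA probes were called in place of 1274 and 1556, and the median of the 48 lower lncRNAs was -2.06. The filter for all 10 arrays left 973 lower probes and 42 of the 66 lncRNAs, since the others were not tested. Without a fold limit, 4040 higher and 3677 lower probes were called for age, and 7754 probes with 20 of the 66 lncRNAs for the slide. The GAPDH ratio as covariate left 846 lower probes. With 1 heart left out, the calls for age ranged from 1059 to 1502 (higher) and from 1353 to 1790 (lower) with all 66 lncRNAs in each, and the medians from 2.66 to 2.93 and from -3.12 to -2.78. The slide calls then ranged from 1030 to 2422 probes and from 0 to 12 of the 66 lncRNAs, and they rest on 2 hearts against 3. The replicate numbers did not pair the hearts (correlations -0.356 to 0.269). The fit with the replicate block gave 1284 higher and 1549 lower probes and all 66 lncRNAs. Of 672 comparisons over the 31 values named, 639 moved by less than the replicate spread, 33 moved further and 0 reversed.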
